A study of Mus musculus with 4 samples.

Results

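Oligodendrocytes are the glial cells that wrap axons in myelin, and this account follows 32 of their genes in adult mouse prefrontal cortex. They were taken by symbol from the 24100 genes in the count tables, all 32 were found, and all 32 passed the low-count filter. Of these, 21 are genes of mature, myelin-forming cells and 11 are genes of precursors or of the lineage as a whole. The study used translating ribosome affinity purification (TRAP), in which ribosomes tagged with EGFP are pulled out of a tissue homogenate with antibodies so that the RNA on them can be sequenced. The animals were adult male Crh-IRES-Cre mice, whose Crh locus, which encodes a stress peptide, also drives Cre recombinase, and none was treated. There was 1 Input library of whole prefrontal cortex and there were 3 immunopurified (IP) libraries, each pooled from 5 males. The labels do not state how the tagged ribosome was delivered, whether the libraries share animals, or how cleanly Cre marks Crh neurons, and no IP from tissue without the tag was used here. P-values therefore reflect no more than the variation among the 3 IP libraries, some of which may be technical. That variation is taken mostly over all genes, and less from the 3 values of the gene itself.

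In the brain, oligodendrocytes arise from precursors that carry the growth factor receptor PDGFRA and the proteoglycan NG2, encoded by Cspg4. The transcription factors OLIG1, OLIG2 and SOX10 mark the whole lineage, GPR17 marks precursors that have begun to differentiate, and MYRF switches on the genes of myelin. Myelin itself is a stack of membrane rich in cholesterol and galactolipids, held together by MBP and other membrane proteins, and a neuron makes little or none of it. Set against the Input, the IP libraries show which of these transcripts were less or more frequent on the captured ribosomes than in the whole tissue.

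For orientation, the proximal promoters of 4 of the genes are shown, since the values below place these genes at different ends of the comparison: Ptgds, the single gene past the threshold, Opalin and Mog, surface genes that lay below the Input, and Mag, a surface gene that lay above it. Each line runs 5′ to 3′ and ends at the gene start in RefSeq (GRCm38.p6), except that of Ptgds, which ends 93 bases before it because GENCODE M21 places an exon there. All 4 lie on the minus strand. Capitals mark the letters searched on both strands.

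Ptgds (chr2:25469843-25469999): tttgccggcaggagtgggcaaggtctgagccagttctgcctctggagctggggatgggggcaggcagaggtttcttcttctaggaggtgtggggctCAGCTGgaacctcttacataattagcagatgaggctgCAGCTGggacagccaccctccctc
Opalin (chr19:41077114-41077363): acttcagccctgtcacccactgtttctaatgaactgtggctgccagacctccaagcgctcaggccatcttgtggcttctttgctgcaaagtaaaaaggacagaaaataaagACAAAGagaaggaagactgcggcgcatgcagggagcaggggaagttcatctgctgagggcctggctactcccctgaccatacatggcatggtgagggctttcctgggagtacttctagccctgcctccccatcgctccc
Mog (chr17:37023399-37023648): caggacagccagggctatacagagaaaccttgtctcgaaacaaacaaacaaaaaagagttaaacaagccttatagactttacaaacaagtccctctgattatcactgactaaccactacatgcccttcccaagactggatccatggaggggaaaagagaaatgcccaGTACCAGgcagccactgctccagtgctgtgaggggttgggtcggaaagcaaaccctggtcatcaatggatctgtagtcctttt
Mag (chr7:30914923-30915172): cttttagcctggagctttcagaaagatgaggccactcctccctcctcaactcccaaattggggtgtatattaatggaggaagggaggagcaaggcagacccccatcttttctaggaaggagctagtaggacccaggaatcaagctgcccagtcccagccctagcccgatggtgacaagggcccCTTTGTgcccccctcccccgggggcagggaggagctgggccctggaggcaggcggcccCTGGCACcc

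The letters were ACAAAG, a core bound by SOX proteins such as SOX10, CAGCTG, an E-box of the kind bound by OLIG2 and other basic helix-loop-helix factors, and CTGGCAC or CTGGTAC, bound by MYRF. RefSeq windows were found for 23 of the 32 genes, 28 windows in all, and the 250 bases before each start were searched. ACAAAG was in 6 of the 28 windows (21.4%) and in 16.5% of all 32851 windows. CAGCTG was in 5 of the 28 (17.9%) and in 13.0% of all windows. Either MYRF form was in 4 of the 28 (14.3%), belonging to Cnp, Mag and Mog, and in 5.93% of all windows. Windows of 1 gene can overlap, and 2 of these 4 are overlapping Mag windows that hold the same match, as they do for the SOX core. Counted by gene, ACAAAG was in 5 of 23 genes (21.7%, against 18.6% of all 27025 genes), CAGCTG in 4 (17.4%, against 14.7%) and a MYRF form in 3 (13.0%, against 6.79%). Mag carries both a SOX core and a MYRF form, Mog a MYRF form, Opalin a SOX core and Ptgds 2 E-boxes, so genes on either side of the Input share these letters. These are matches of letters and not measured binding.

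Libraries held 14474529 counts in the Input and 23548375, 10031072 and 12150980 counts in IP 1, 2 and 3. Levels are given as CPM, that is, counts after scaling to the total of each library times its TMM factor, where 1 count equals 0.0600 CPM in the Input against 0.0436, 0.107 and 0.0862 CPM in IP 1, 2 and 3. In IP 1, 2 and 3 a count of 0 allows up to 3 counts, 0.131, 0.321 and 0.259 CPM, and these limits cover counting error only. Differences are log2 folds of IP over Input from edgeR's quasi-likelihood test, with standard errors (SE) and p-values adjusted by Benjamini-Hochberg over 14636 genes. SDs are over the 3 IP libraries, and the Input has no replicate. Crh itself had 22 counts in the Input and 11497, 1626 and 2238 counts in IP 1, 2 and 3.

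The 32 genes mostly lay below the Input, and few passed a test. In the fit, 1 of 32 was called lower and 0 were called higher, where 0.0478% of all genes tested were called lower and 0.41% higher. DESeq2 and limma-voom each called 1 of the 32, where they called 1.24% and 0.348% of all genes. At an unadjusted p under 0.05 by edgeR, 4 were lower (Ptgds, Gjc3, Opalin and Sox10) and 1 was higher (Cspg4), against 1.23% and 3.2% of all genes. Shares at an unadjusted p were computed for edgeR only, so the DESeq2 and limma-voom counts given below have none beside them. Of the 32 genes 19 (59.4%) lay below the Input in every IP library, against 24.1% of all genes tested, and 5 (15.6%) lay above it in all 3, against 19.7%. Opalin, also among the 4 lower genes, and Nkx6-2 passed the filter through the Input alone, so their place below it follows from that. Without them 17 of 30 lay below. The share over all genes was not computed without such genes, so the 24.1% is no match for the 17 of 30. The Input is RNA of whole tissue and the IP is RNA on captured ribosomes, so a fold between them is not a count of cells. Without an IP from untagged tissue, the RNA carried along from other cells was not measured. In bulk tissue, fewer cells of a type and less RNA per cell cannot be told apart.

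**Figure D1:**
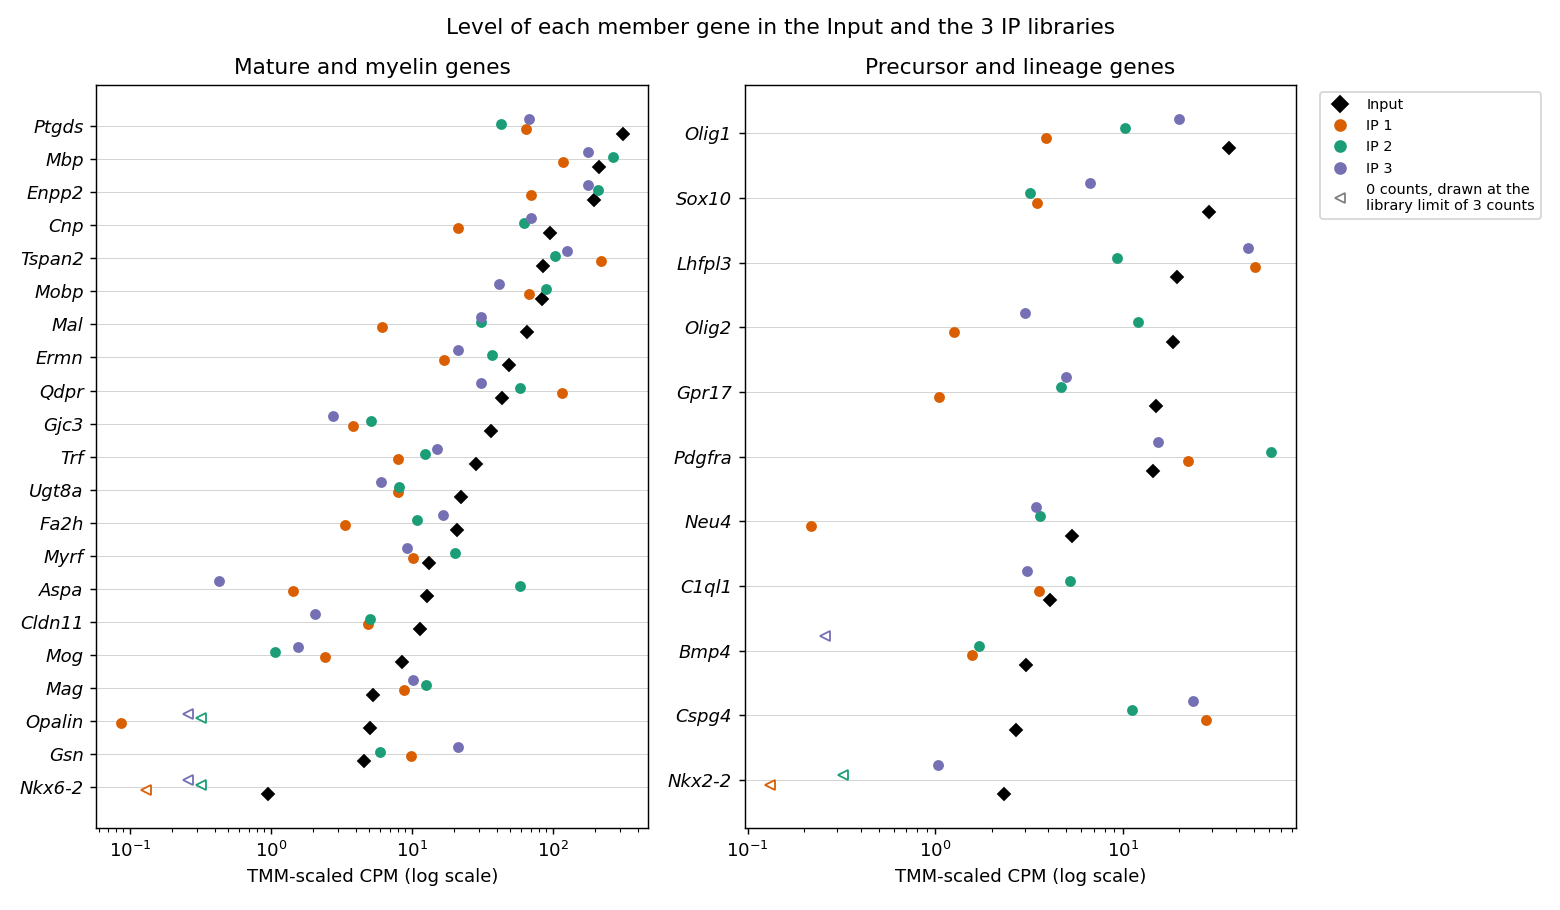
Level of each gene (rows, ordered by the Input) as TMM-scaled CPM on a log axis, for the Input (black diamonds) and IP 1, 2 and 3 (coloured circles); open triangles mark 0 counts, drawn at the limit of 3 counts. Most diamonds stand to the right of the circles, while for Tspan2, Mag, Gsn, Pdgfra and Cspg4 all 3 circles stand to the right of the diamond.

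Among the 21 mature and myelin genes the median log2 fold was -0.96, against 0.083 over all genes tested. Below the Input in every IP library lay 12 (57.1%, against 24.1% of all genes tested). Above it in all 3 lay 3 (14.3%, against 19.7%), and 6 lay on both sides. The summed level of the 21 genes was 1322 CPM in the Input against 764, 1042 and 831 CPM in IP 1, 2 and 3. Ptgds, described below, holds a large part of that difference, most of all in IP 2. Per library, the median log2 ratio to the Input (with 0.5 CPM added to both) was -1.50, -0.62 and -1.005. The 21 genes thus lay lowest in IP 1, in which the GABAergic markers were highest. IP 2, the highest of the 3 for the summed mature genes, was also the highest for summed astrocyte markers (3440 CPM, against 3117 in the Input, 2520 in IP 1 and 2404 in IP 3, with 11 of 16 below the Input in every IP library and 0 at 0 counts). The part of those other cells in these values was not tested.

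Ptgds, the gene of lipocalin-type prostaglandin D synthase, was the gene called lower (Entrez 19215, chromosome 2, 25466709 to 25470046 on the minus strand). It is made by mature oligodendrocytes and also by the leptomeninges. The Input had 316 CPM, while IP 1, 2 and 3 had 64.7, 43.0 and 67.7 CPM, a mean of 58.5 ± 13.5 CPM (SD, n = 3). All 3 IP libraries lay far below the Input and close to each other. The log2 fold was -2.43 ± 0.46 (SE, adjusted p = 0.0136), and it was called by DESeq2 (adjusted p = 0.000628) and limma-voom (0.0147) as well. Over 12 alternatives its adjusted p ran from 2.28e-05 to 0.0156. Beside it, 8 of 13 tested meningeal fibroblast markers lay below the Input in every IP library (61.5%, against 24.1% of all genes tested). The summed level of these markers was 123 CPM in the Input against 15.8, 46.7 and 104 CPM in IP 1, 2 and 3. Of these, Igf2 had 59.0 CPM in the Input against 4.49, 19.2 and 20.3 CPM, and Slc13a4 had 13.1 CPM against 2.75, 2.35 and 5.00 CPM. In the Input, 0 of those 14 markers were at 0 counts, and in the IP libraries 2, 3 and 2 were. Whether meningeal RNA had a part in the value of Ptgds was not tested.

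Of the 5 genes of compact myelin 2 lay below the Input in every IP library (40%, against 24.1% of all genes tested). Above it in all 3 lay 1 (20%, against 19.7%), and 2 lay on both sides. Mbp, the gene of myelin basic protein and the most abundant of these 5 per exon length in the Input (25.4 CPM per kb), had 215 CPM there and 119, 266 and 178 CPM in IP 1, 2 and 3. The IP libraries thus lay on both sides of the Input, with a log2 fold of -0.20 ± 0.48 (SE). Mobp, which encodes another basic protein of compact myelin, also lay on both sides, with 84.1 CPM in the Input against 67.5, 90.0 and 41.6 CPM in the IP libraries (-0.34 ± 0.63). Mal, a proteolipid that sorts proteins to the myelin membrane, had 65.4 CPM in the Input against 6.15, 31.0 and 30.8 CPM in IP, so that IP 1 stood well below the other IP libraries (-1.53 ± 0.86). Cldn11, the claudin that forms tight junctions between myelin layers, had 11.5 CPM in the Input against 4.93, 5.03 and 2.07 CPM in IP (-1.51 ± 1.49). Tspan2, a tetraspanin of myelinating cells, lay the other way, with 85.8 CPM in the Input against 220, 104 and 127 CPM in IP (0.81 ± 0.55), all 3 above the Input. None of these 5 passed with edgeR, DESeq2 or voom. At an unadjusted p under 0.05 edgeR and DESeq2 had 0 of the 5, and limma-voom had 1, Mal.

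The 3 surface genes parted widely. Mog, the myelin oligodendrocyte glycoprotein on the outermost layer, had 142 counts (8.52 CPM) in the Input against 2.44, 1.07 and 1.55 CPM in IP 1, 2 and 3, all well below (log2 fold -2.32 ± 1.76). Opalin, a sialylated membrane protein of oligodendrocytes, had 85 counts (5.10 CPM) in the Input against 2, 0 and 0 counts in IP. Pooled over the IP libraries, the ratio of Input to IP for Opalin was 112, with a 95% exact counting interval of 30.0 to 939. That interval covers counting error only, and the side of Opalin follows from its passing the filter through the Input alone. The fitted log2 fold of -6.85 ± 2.73 was not past the threshold (adjusted p = 0.861). Mag, the myelin-associated glycoprotein that faces the axon, had 88 counts (5.28 CPM) in the Input against 8.80, 12.7 and 10.3 CPM in IP, above the Input in all 3 (1.004 ± 1.41, edgeR adjusted p = 0.9999). Mog and Mag therefore lay on opposite sides of the Input.

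**Figure D2:**
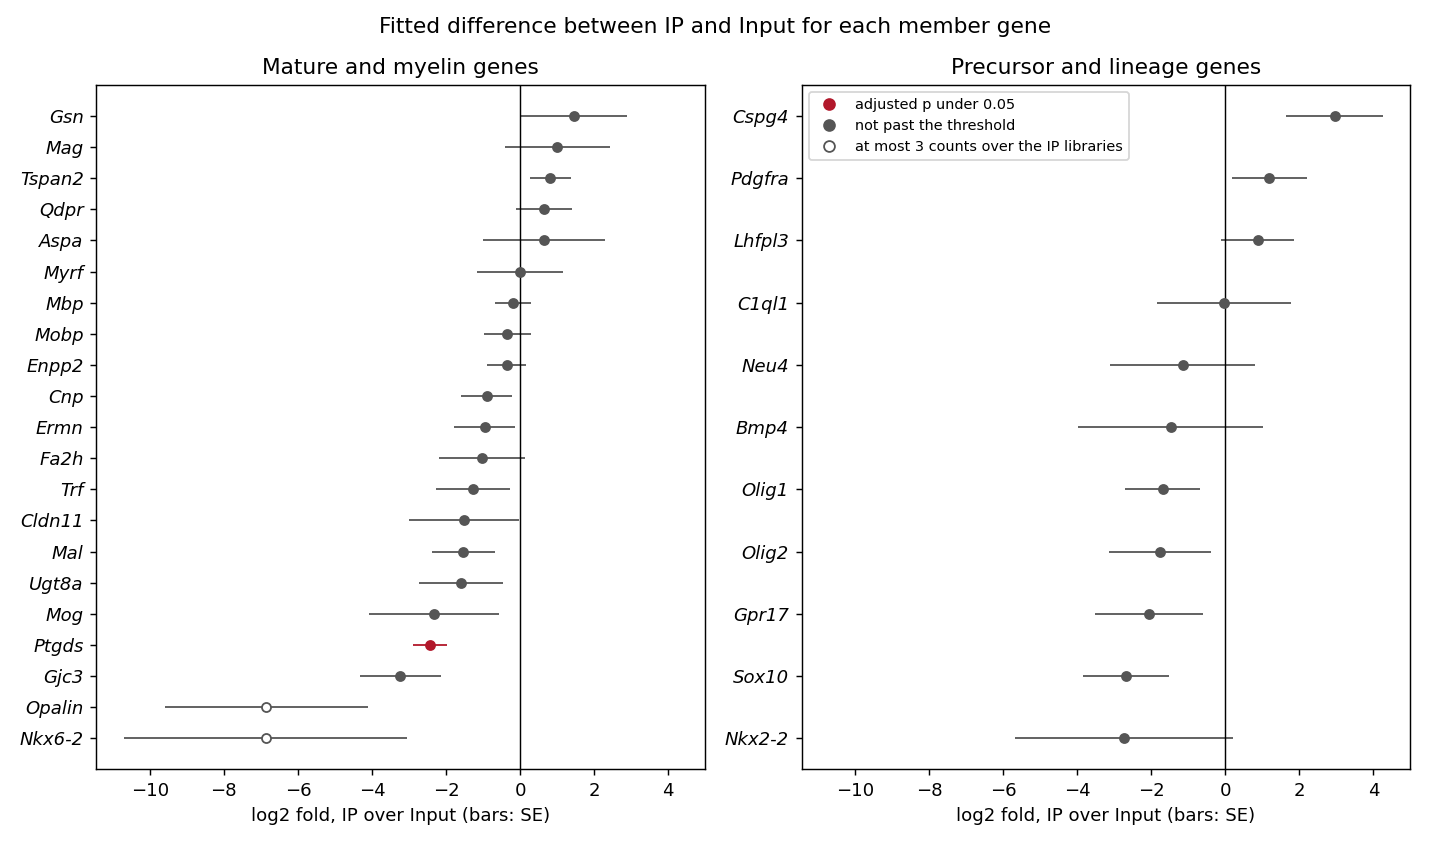
Fitted log2 fold of IP over Input for each gene with its SE (bars), for the mature and myelin genes and for the precursor and lineage genes. Ptgds (red, -2.43) is the gene past the threshold, and the open circles, Opalin and Nkx6-2, rest on at most 3 counts over the IP libraries.

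The genes of lipid synthesis included Aspa, the gene with the widest ratio between IP libraries among those of the 32 detected in every library. Ugt8a, the enzyme that makes galactocerebroside, the signature lipid of myelin, had 22.4 CPM in the Input against 8.02, 8.13 and 6.04 CPM in IP, a tight set below it (log2 fold -1.60 ± 1.14). Fa2h, which hydroxylates the fatty acids of those lipids, had 21.0 CPM and 3.36, 10.9 and 16.6 CPM (-1.04 ± 1.16). Aspa, aspartoacylase, which releases acetate from N-acetylaspartate in oligodendrocytes, had 214 counts (12.8 CPM) in the Input against 33, 550 and 5 counts in IP 1, 2 and 3, or 1.44, 58.8 and 0.43 CPM. IP 2 thus stood 136-fold above IP 3 and well above the Input, while IP 1 and IP 3 stood far below it. The log2 fold of Aspa was 0.65 ± 1.65 and turned to -3.75 without IP 2 (adjusted p = 0.984). In IP 2 the summed endothelial markers were also highest (545 CPM, against 49.2 in the Input, 174 in IP 1 and 235 in IP 3). Slc2a1, the glucose transporter of the blood-brain barrier, had 22.8 CPM in the Input against 49.9, 307 and 103 CPM, and Egfl7 had 3.06 CPM against 5.14, 18.2 and 1.81 CPM. Flt1 and Esam were tied with Egfl7 in the Input. Flt1 had 44.7, 94.8 and 16.0 CPM in IP 1, 2 and 3, while Esam had 2.09, 0.43 and 0.69 CPM, below the Input in all 3 and lowest in IP 2. DESeq2 called 2 of these markers higher, Slc2a1 and Flt1, and edgeR 0, with 4 at an unadjusted p under 0.05. Of the 14 markers 10 lay above the Input in every IP library (71.4%, against 19.7% of all genes tested). None of the 14 was at 0 counts, and their part in the level of Aspa was not tested.

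Of the 4 genes of cytoskeleton and cell junctions, Gjc3 had the lowest log2 fold. It encodes connexin 29, a gap junction protein of myelinating cells, and had 612 counts (36.7 CPM) in the Input against 3.84, 5.13 and 2.76 CPM in IP 1, 2 and 3, a mean 9.39-fold lower. All 3 IP libraries lay close together, and the log2 fold was -3.23 ± 1.08 (SE, edgeR adjusted p = 0.530). Over the 12 alternatives the adjusted p of Gjc3 ran from 0.115 to 0.696, so it was called in none of them. Cnp, the phosphodiesterase that keeps cytoplasmic channels in myelin open, had 96.2 CPM in the Input against 21.3, 62.6 and 70.5 CPM in IP (-0.90 ± 0.68). Ermn, the actin-binding protein ermin, had 48.8 CPM and 16.9, 37.1 and 21.3 CPM (-0.96 ± 0.81). Cnp and Ermn lay below the Input in all 3 libraries, lowest in IP 1. Gsn, the actin-severing protein gelsolin, had 4.56 CPM in the Input against 9.94, 5.99 and 21.4 CPM in IP, above in all 3 (1.45 ± 1.43, and 0.81 without IP 3), and is made by many cell types.

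The secreted proteins and other enzymes, Ptgds aside, were mixed. Enpp2, autotaxin, which makes the signalling lipid lysophosphatidic acid, had 196 CPM in the Input against 70.1, 209 and 178 CPM in IP 1, 2 and 3, so that only IP 1 stood clearly apart (log2 fold -0.36 ± 0.53). Trf, the iron carrier transferrin, had 28.6 CPM and 7.93, 12.4 and 15.1 CPM (-1.28 ± 1.001), below in all 3, but another annotated gene covers 63.49% of its exon bases. Qdpr, dihydropteridine reductase, which regenerates a cofactor of monoamine synthesis, had 43.9 CPM in the Input against 117, 59.0 and 31.2 CPM in IP (0.65 ± 0.75), above it in IP 1 and IP 2 and below it in IP 3, and the log2 fold was 0.018 without IP 1. Of the exon bases of Qdpr 18.57% are shared with an antisense gene, and whether the counting used strand is unknown. Enpp2, Trf and Ptgds are also made by choroid plexus. Of 8 choroid plexus markers, the defining gene Ttr had 0.12 CPM in the Input against 0, 0.107 and 0 CPM in IP 1, 2 and 3, and Otx2 was at 0 in all 4 libraries. The 8 summed to 9.17 CPM in the Input against 59.8, 12.3 and 49.1 CPM in IP. Most of the IP sum came from Sostdc1 (0.18 CPM in the Input against 57.2, 11.3 and 15.6 CPM, called higher by DESeq2 with an adjusted p of 9.05e-06 but not by edgeR, at 0.0875) and Kl (4.08 CPM against 0.131, 0 and 33.2 CPM), while Kcnj13 had 3.12 CPM against 1.13, 0 and 0 CPM. The part of these cells in the values above was not tested.

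Myrf, the transcription factor of myelin genes, stood at the Input level, with 13.3 CPM there and 10.2, 20.2 and 9.23 CPM in IP (log2 fold -0.0059 ± 1.16, above 0 at 0.0064 with DESeq2 and 0.0070 with RLE factors). Nkx6-2, a homeobox gene of mature oligodendrocytes, had 16 counts (0.959 CPM) in the Input against 0 in each IP library, at least 14.0-fold lower when 3 counts over the pooled IP libraries are taken as the limit. With Nkx6-2 set to that bound the median of the 21 genes was still -0.96. A count of 16 in the Input leaves Nkx6-2 weakly measured.

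**Figure D3:**
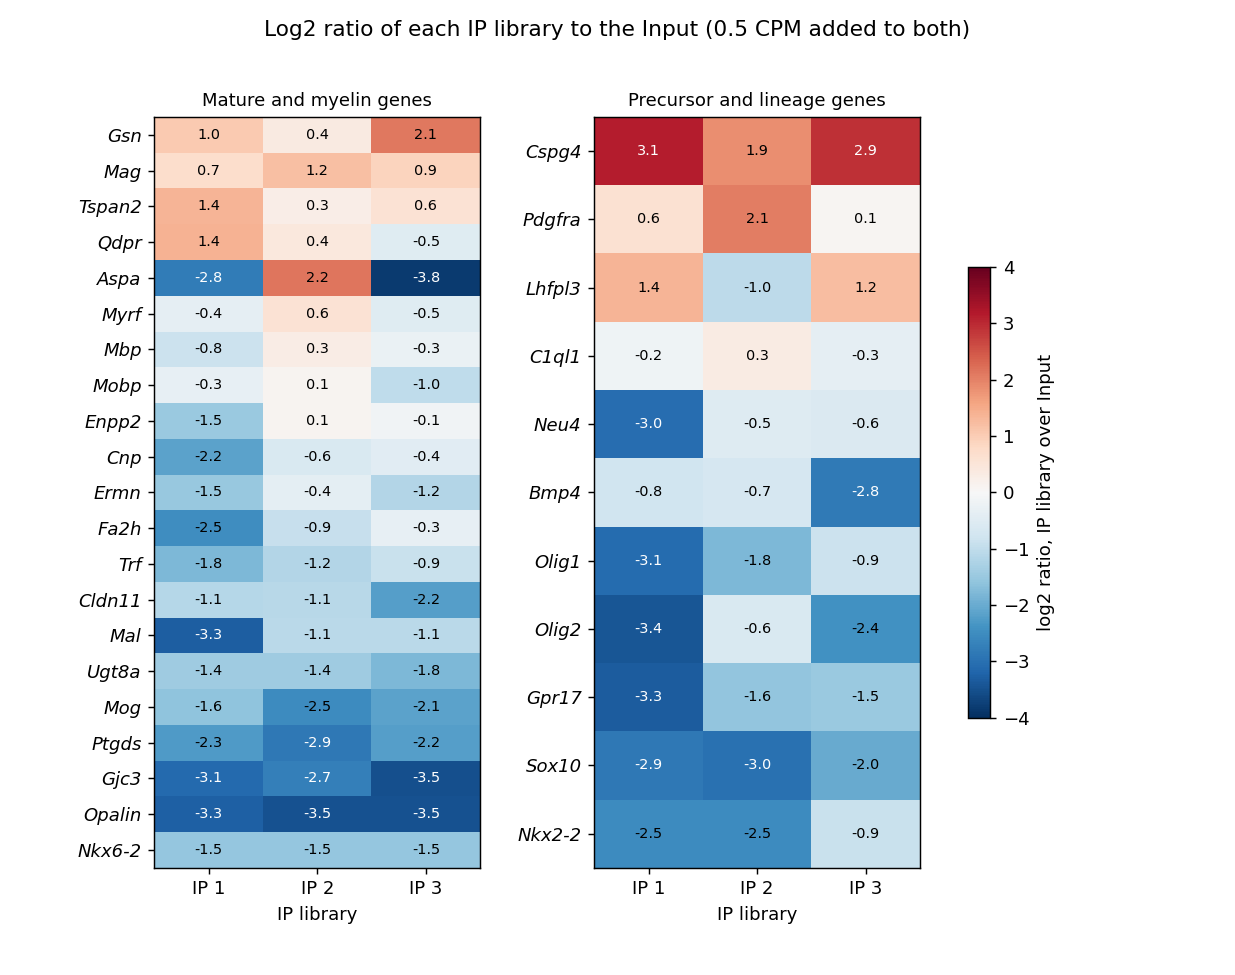
Log2 ratio of each IP library to the Input (0.5 CPM added to both), 1 row per gene and 1 column per library, red above and blue below the Input. Aspa is red in IP 2 and dark blue in IP 1 and IP 3, and Olig1, Olig2, Gpr17, Neu4 and Mal are bluest, each within its row, in IP 1.

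Among the 11 precursor and lineage genes the median log2 fold was -1.48. Below the Input in every IP library lay 7 (63.6%, against 24.1% of all genes tested). Above it in all 3 lay 2 (18.2%, against 19.7%), and 2 lay on both sides. None of the 11 passed with edgeR, DESeq2 or voom. At an unadjusted p under 0.05, edgeR and DESeq2 each had 1 lower (Sox10) and 1 higher (Cspg4), and limma-voom had 4 lower (Sox10, Olig1, Olig2 and Gpr17) and 0 higher. Over all genes edgeR had 1.23% lower and 3.2% higher. No such share was computed for DESeq2 or limma-voom, and with limma-voom the median of all genes was -0.14. The genes were also grouped by role, with earlier results of these data known. The 4 lineage transcription factors and the 2 genes of committed precursors lay below the Input in every IP library. The 5 other genes encode surface and secreted proteins of precursors (Pdgfra, Cspg4, C1ql1, Lhfpl3 and Bmp4). Of these 5, 1 lay below throughout (20%, near the 24.1% of all genes tested). The summed level of the 4 factors was 86.3 CPM in the Input against 8.63, 25.6 and 30.7 CPM in IP, whereas that of the 5 other genes was 43.9 CPM in the Input against 106, 89.6 and 88.9 CPM in IP. Within the 5, Cspg4, Pdgfra and Lhfpl3 had log2 folds above 0, while C1ql1 (-0.039) and Bmp4 (-1.48) did not. The difference between these groups was not tested.

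Sox10, the factor that drives the lineage into myelination, had 479 counts (28.7 CPM) in the Input against 3.49, 3.21 and 6.73 CPM in IP 1, 2 and 3. All 3 lay well below the Input (log2 fold -2.68 ± 1.16 SE, edgeR adjusted p = 0.978). Olig1, a basic helix-loop-helix factor of the lineage, had 36.7 CPM in the Input against 3.88, 10.3 and 19.9 CPM in IP (-1.69 ± 1.01). Its neighbour on chromosome 16, Olig2, had 18.5 CPM and 1.26, 12.1 and 3.02 CPM (-1.77 ± 1.37). Without IP 2 the log2 fold of Olig2 was -3.12, and without IP 3 that of Olig1 was -2.38. The pair shared their lowest library, IP 1, but Olig1 was highest in IP 3 and Olig2 in IP 2. Nkx2-2, a homeobox factor that times differentiation, had 39 counts (2.34 CPM) in the Input against 0, 0 and 12 counts in IP (-2.75 ± 2.95). Its IP level thus rests on IP 3, and without that library, with 0 counts left in IP, the fitted log2 fold was -8.26.

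The genes of precursors that have started to differentiate also lay below the Input throughout. Gpr17, a receptor of that stage, had 250 counts (15.0 CPM) in the Input against 1.05, 4.70 and 5.00 CPM in IP (log2 fold -2.07 ± 1.45). Neu4, a sialidase of the lineage, had 5.40 CPM and 0.22, 3.64 and 3.45 CPM (-1.15 ± 1.96). Both had their lowest level in IP 1, and neither passed the threshold.

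Cspg4, the NG2 proteoglycan of precursors and of the pericytes that surround capillaries, stood against this. It had 45 counts (2.70 CPM) in the Input against 638, 105 and 274 counts in IP 1, 2 and 3, or 27.8, 11.2 and 23.6 CPM, a mean 7.74-fold higher. Every IP library was above the Input, but the log2 fold of 2.95 ± 1.30 (SE) had an edgeR adjusted p of 0.996. Pdgfra, the platelet-derived growth factor receptor of precursors and of fibroblasts, had 14.5 CPM in the Input against 22.2, 62.1 and 15.3 CPM in IP (1.19 ± 1.02). Its excess rested mainly on IP 2, since the log2 fold was 0.37 without that library. Summed mural cell markers were 84.3 CPM in the Input against 148, 410 and 259 CPM in IP. Of 11 tested, 5 lay above the Input in all 3 (45.5%, against 19.7% of all genes tested). Rgs5, a gene of pericytes, held most of that sum (58.3 CPM against 111, 293 and 153 CPM), and Vtn had 4.44 CPM against 7.02, 4.49 and 7.501 CPM. The sum and Rgs5 were highest in IP 2, as was Pdgfra, whereas Vtn and Cspg4 were lowest in IP 2. Of the 12 mural markers 5 were highest in IP 2, 5 in IP 3 and 2 in IP 1. The pericyte genes Kcnj8 and Higd1b were at 0 counts in IP 2 and IP 3, and the part of mural cells in these values was not tested.

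Of the 3 other precursor genes, Lhfpl3 and C1ql1 lay on both sides of the Input and Bmp4 lay below it. Lhfpl3, a tetraspan membrane protein of precursors, had 19.5 CPM in the Input against 51.0, 9.30 and 46.8 CPM in IP (log2 fold 0.87 ± 0.99), below the Input in IP 2 alone, while an antisense gene covers 17.65% of its exon bases. C1ql1, a secreted protein of the C1q family, had 4.08 CPM and 3.57, 5.24 and 3.10 CPM (-0.039 ± 1.81). Bmp4, the bone morphogenetic protein made by newly committed cells, had 51 counts (3.06 CPM) in the Input against 1.57, 1.71 and 0 CPM in IP (-1.48 ± 2.50).

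Between libraries, the spread of single genes was wide. Of the 32 genes 16 were highest in IP 2, 9 in IP 3 and 6 in IP 1 (Nkx6-2 is tied at 0). With ties left out, 12 were lowest in IP 1, 10 in IP 3 and 7 in IP 2. Over all genes tested, 5012, 4856 and 4630 were highest in IP 1, 2 and 3, and 4308, 4905 and 4598 were lowest in them. The precursor and lineage genes had a median log2 ratio of -2.51 in IP 1 against -0.69 in IP 2 and -0.87 in IP 3. The middle gene in IP 1 was Nkx2-2, at 0 counts there, so this value is set by the 0.5 CPM added. Its neighbours in rank in IP 1 were Sox10 (-2.87) and Bmp4 (-0.78). Of 12 GABAergic markers edgeR called 8 higher, led by Crh, Vip, Htr3a and Dlx1 (log2 folds 7.77, 6.36, 5.78 and 4.22), and Gad2 had 289 CPM in the Input against 1647, 1250 and 1623 CPM in IP. In IP 1 summed GABAergic markers were 9458 CPM, against 837 in the Input, 6421 in IP 2 and 7149 in IP 3, so the library richest in the markers of GABAergic neurons was also the lowest in the medians of both groups. With 3 IP libraries this is a description and was not tested.

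**Figure D4:**
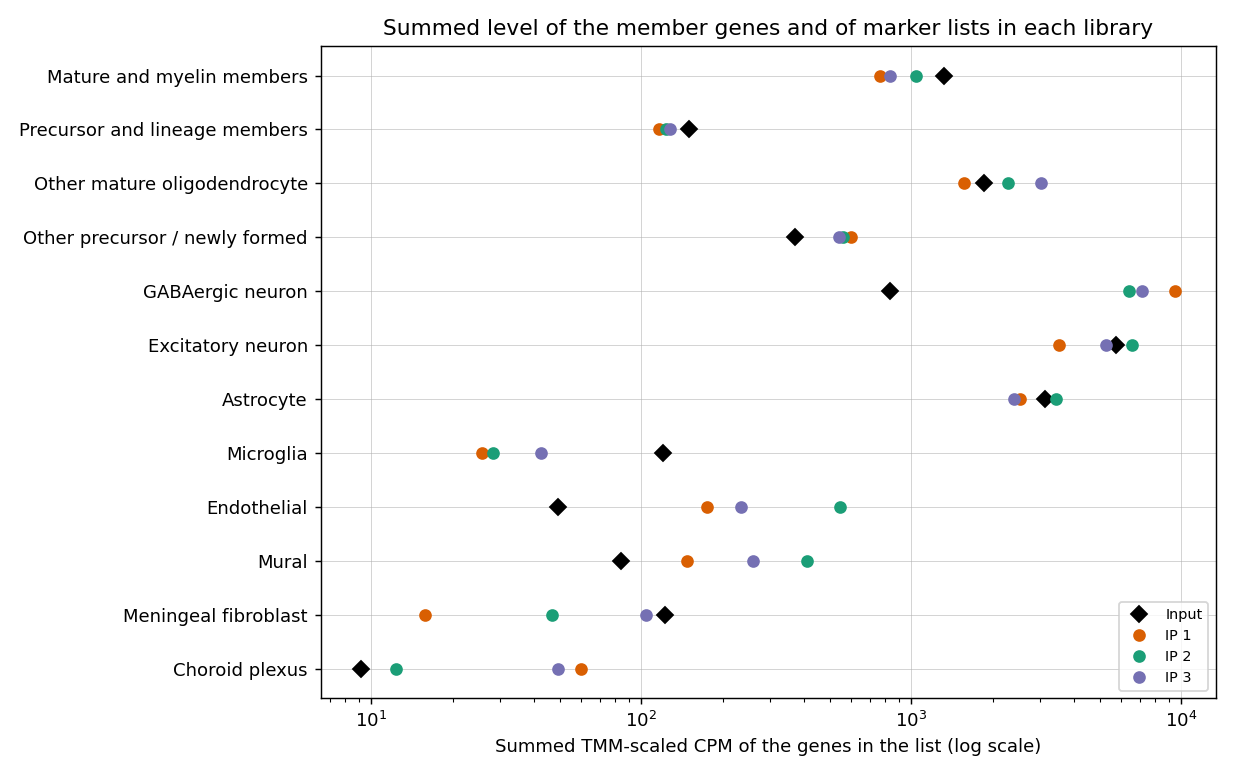
Summed TMM-scaled CPM (log axis) of the genes in each list for the Input (black diamonds) and IP 1, 2 and 3 (coloured circles). The sums of the mature and myelin genes and of the precursor and lineage genes lie below the Input in every IP library by less than 2-fold. Ptgds (316 CPM in the Input against 64.7, 43.0 and 67.7 CPM in IP) holds a large part of the difference for the mature genes. Microglial markers lie below the Input by more, and endothelial and GABAergic markers lie above it. The other precursor and newly formed oligodendrocyte genes sum to 371 CPM in the Input against 599, 560 and 538 CPM in IP. Most of that rise is Ptprz1, a gene of precursors and astrocytes. By gene, 5 of the 17 tested lay below the Input in every IP library and 4 above. The other mature oligodendrocyte genes lie on both sides, with 1865 CPM in the Input against 1564, 2285 and 3033 CPM in IP. Most of this sum is the tubulin gene Tubb4a, which neurons express as well. By gene, 14 of the 29 tested lay below the Input in every IP library and 0 above.

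Further genes of the same cells were taken from lists of mature and of precursor genes. Of 30 other mature oligodendrocyte genes 29 were tested, 0 passed with edgeR, DESeq2 or voom, 14 lay below the Input in every IP library (48.3%, against 24.1% of all genes) and 0 above, and the median log2 fold was -0.47. At an unadjusted p under 0.05 edgeR had 0 of them, DESeq2 1 and limma-voom 3, all lower. The tubulin gene Tubb4a, which neurons express as well, had 1266 CPM in the Input against 1246, 1858 and 2613 CPM in IP, and the carbonic anhydrase gene Car2 had 110.0 CPM and 60.1, 21.6 and 71.5 CPM. Of 18 other genes of precursors and newly formed oligodendrocytes 17 were tested, and 0 were called in any of the 3 tests. At an unadjusted p under 0.05 by edgeR 1 was higher and 1 lower. Below the Input in all 3 IP libraries lay 5 (29.4%, against 24.1% of all genes). Above it in all 3 lay 4 (23.5%, against 19.7%), so both shares were near those over all genes. The median was 0.24. Ptprz1, a receptor phosphatase of precursors and astrocytes, had 92.1 CPM in the Input against 258, 298 and 189 CPM in IP, for a log2 fold of 1.43 ± 0.49 (edgeR adjusted p = 0.536). Megf11, an adhesion gene also known from neurons, had 76.6 CPM and 137, 49.0 and 94.0 CPM. Chosen after its values were seen, Enpp6, a phosphodiesterase gene of newly formed oligodendrocytes, had 59 counts in the Input and 0 in each IP library, at least 51.8-fold lower against 3 counts over the pooled IP libraries. Genes that passed the filter through the Input alone, such as Enpp6, were left in the counts of these other lists.

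Cholesterol is a main constituent of myelin, but its synthesis genes are active in all cells. Of 19 such genes 0 passed with edgeR, DESeq2 or voom, and 0 had an unadjusted p under 0.05 with any of the 3. The median log2 fold was 0.18, with 4 below the Input in every IP library (21.1%, against 24.1% of all genes tested). Above it in all 3 were 4 (21.1%, against 19.7%). Hmgcs1, which starts the pathway, had 198 CPM in the Input against 225, 258 and 277 CPM in IP, and Fdft1, squalene synthase, had 104 CPM and 123, 142 and 108 CPM. Of 10 genes for axonal partners of myelin, such as the juxtaparanodal channel Kcna2 (574 CPM in the Input against 731, 1035 and 751 CPM in IP) and the adhesion gene Cadm2 (534 CPM and 854, 529 and 523 CPM), 0 were called by the same tools, 0 had an unadjusted p under 0.05 with any of them, and the median was 0.11.

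Among the other cells, the median log2 fold of 16 astrocyte markers was -0.83. Below the Input in every IP library were 11 of the astrocyte markers (68.8%), 13 microglial markers (86.7%) and 10 excitatory neuron markers (71.4%), against 24.1% of all genes tested. The glutamate transporter gene Slc1a2 had 2122 CPM in the Input against 1380, 2457 and 1546 CPM in IP, and Atp1b2 had 319 CPM against 824, 524 and 542 CPM. The median of 15 microglial markers was -2.35, with a sum of 120 CPM in the Input against 25.6, 28.1 and 42.3 CPM in IP. P2ry12 had 21.2 CPM against 1.74, 2.46 and 1.55 CPM. The median of 14 excitatory neuron markers was -0.98, with 2, Nrn1 and Nrgn, called lower by edgeR (log2 folds -3.04 and -2.11). Camk2a had 2902 CPM in the Input against 2590, 4976 and 4160 CPM in IP, and Slc17a7 633 CPM against 201, 403 and 214 CPM. Beside these stand the 4 oligodendrocyte medians of -0.96 and -1.48 for the mature and precursor genes among the 32 and -0.47 and 0.24 for the other lists, and the differences between lists were not tested.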

How the data were processed

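RNA of whole prefrontal cortex (1 Input) and RNA bound to EGFP-tagged ribosomes (3 IP libraries) was sequenced, 5 males per library. The deposited tables hold raw counts by gene, each row named by Entrez identifier and symbol per the file headers. The submitters' processing notes name STAR 2.0.0e, HTSeq and mm10, while the names of the tables hold the word subread, so the counter is not settled. Annotation, strand and multiply mapped reads are not given in the sources used here, and reads of overlapping genes may be split. The 9 genes without a symbol (at most 0.0221% of a library) were kept.

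In R 4.3.3, genes were filtered by filterByExpr (minimum count 10), scaled by TMM (factors of the Input and IP 1, 2 and 3: 1.15, 0.974, 0.932 and 0.955) and tested by edgeR 4.0.16, glmQLFit and glmQLFTest, two-sided, threshold 0.05 after Benjamini-Hochberg adjustment. With a lone Input the IP libraries alone set the spread (residual df 2, prior df 17.0) and the Input is assumed to vary like them. The SE and p-value of a gene thus rest more on the spread shared over genes than on its own. The SE is the log2 fold over the square root of F. The script was tested on simulated data. No library was a copy of another (chi-square per degree of freedom at least 84.7). Exon lengths, coordinates and overlaps are from GENCODE M21 (GRCm38), promoters from RefSeq (GRCm38.p6).

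Alternatives were DESeq2 1.42.0, limma-voom (limma 3.58.1), RLE, upper-quartile and library-total scaling, a robust prior, no low-count filter, genes kept at a mean of 5 CPM or more, a threshold of 0.01, and leaving out each IP library. All 32 genes are named. Of each other list used, up to 4 genes called by edgeR and the 2 highest in the Input by CPM are named, apart from genes not reported here. Flt1, Esam, Ttr, Otx2, Sostdc1, Kcnj8, Higd1b, Enpp6 and the 4 promoters shown were chosen after values were seen. Genes and lists were chosen with earlier results of these data known.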

Additional observations from a re-analysis of the deposited data

How the results depend on the processing

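With 1 Input and 3 IP libraries the depth and number of libraries limit what can be called, and a gene that misses the threshold is not shown to be equal. No paired analysis was possible, because there was 1 Input for 3 IP libraries and the labels do not state whether the libraries share animals. Over all genes, 67 were called, and 182 with DESeq2 (169 higher, 13 lower), 108 without a low-count filter, 39 at an adjusted p under 0.01, and 90 to 210 when an IP library was left out (210 without IP 1, 105 without IP 2). Ptgds was the mature gene called in all of these but the 0.01 threshold, where 0 were called (log2 fold -2.43). No precursor gene was called in any of the 12 alternatives. The median of the mature genes was -1.42 with limma-voom and -1.32 to -0.64 when an IP library was left out, and that of the precursor genes was -2.28 with limma-voom and -1.63 to -1.30. The median of all genes moved from 0.083 to -0.19 with library totals, -0.13 with upper-quartile factors and -0.14 with limma-voom. With a mean of at least 5 CPM 4 precursor genes were below the Input throughout, since fewer genes were tested, and without IP 2 the mature genes that lay below were 17 instead of 12. Of 377 values of single genes, 367 kept direction and call and 9 turned sign. When an IP library was left out, the log2 folds ran from -0.54 to 0.025 for Mbp, -3.75 to 1.23 for Aspa, -0.45 to 0.20 for Myrf and -0.29 to 0.11 for C1ql1. Without IP 1, Mbp was 0.025, Myrf 0.13 and C1ql1 0.010; without IP 2, Aspa was -3.75; without IP 3, Myrf was 0.20 and C1ql1 0.11; with limma-voom Aspa was -2.27, and Myrf was 0.0064 with DESeq2 and 0.0070 with RLE factors. Apart from leaving out libraries, the causes were not tested.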
